A study of Mus musculus with 2 samples.

Results

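Smooth muscle contractile genes were followed in mouse stomach at embryonic day 16.5 (E16.5): Myh11, Myl9, Mylk, Cnn1, Tagln, Smtn, Cald1, Des, Lmod1 and Myocd. These 10 genes, chosen by name from what their proteins do, are 10 of the 43346 Ensembl genes in each table. Total RNA longer than 200 nt was sequenced from 2 libraries of 1 group, replicates 1 and 2, each from stomachs of B6NCrl embryos of mixed sex pooled together. The labels give 41 embryos for replicate 2 and no number for replicate 1, name no treatment or mutant allele, and list the same donor entry for both pools. With 1 group there is no comparison between conditions and no p-value: the data give levels, relations between genes and transcripts, and the difference between the pools, which may in part be technical. Levels are in TPM, a unit that gives a gene's length-corrected share of all transcripts, and are given as mean ± SD with n = 2 libraries.

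Smooth muscle has no sarcomeres: thick filaments of smooth muscle myosin pull on actin filaments that are anchored at dense bodies and at plaques on the membrane. Contraction starts when calcium and calmodulin activate myosin light chain kinase, which phosphorylates the regulatory light chain, and it ends when myosin phosphatase removes the phosphate. In the stomach wall this muscle mixes and moves the contents, and the serum response factor SRF with its partner myocardin is known to drive many of these genes through a DNA element called the CArG box.

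All 10 genes were detected, here meaning at 1 TPM or more in both libraries, and all 10 also passed 10 TPM. Their median was 193 TPM in replicate 1 and 190.1 TPM in replicate 2, beside 14.99 and 15.59 TPM for the 15372 genes detected. On a log2(TPM + 0.1) scale the median member therefore lay 3.60 ± 0.07 above the median detected gene. Together the members held 2859 TPM in replicate 1 and 3199 TPM in replicate 2. In bulk tissue, fewer cells of a type and less RNA per cell cannot be told apart, so a level describes the whole wall and not a muscle cell. The total expected count, which sets the precision, was 44567153 in replicate 1 and 25677702 in replicate 2. As a check of the tissue label, Barx1, a homeobox gene of stomach mesenchyme, had 47.3 and 39.5 TPM. All 7 of 7 visceral smooth muscle markers were detected, 2 of which are members, as were 15372 of all 43346 Ensembl genes. That count does not check the label. At the same limit 14 of 14 skeletal muscle markers and 10 of 10 markers of vascular smooth muscle and pericytes were detected too.

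The members spread over a 91.7-fold range of TPM. From the highest to the lowest the order was Myl9, Tagln, Cald1, Cnn1, Myh11, Des, Smtn, Mylk, Myocd and Lmod1. Cald1 and Cnn1 were the only neighbours in that order whose values overlapped between libraries, although Cald1 was higher than Cnn1 within each library. Myl9 stood at the 99.6th percentile of detected genes and Lmod1 at the 50.2nd, so the lowest member was an average gene of this tissue.

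**Figure D1:**
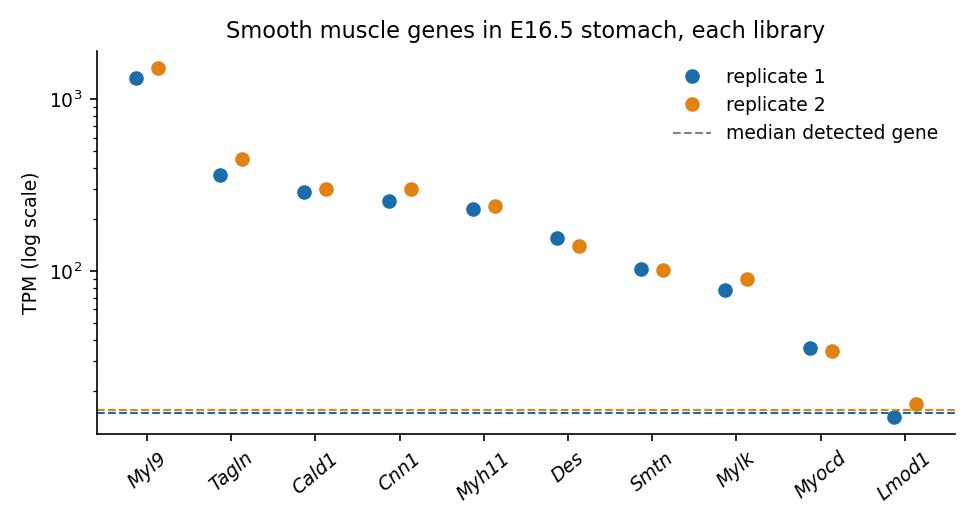
TPM (log axis) of each of the 10 genes in replicate 1 (blue) and replicate 2 (orange), with dashed lines at the median detected gene of each library (14.99 and 15.59 TPM). Myl9 sits highest, and Lmod1 sits beside the dashed lines at 14.2 and 17.0 TPM.

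Among the motor proteins, Myh11 (ENSMUSG00000018830; chromosome 16, 14194535 to 14291372 on GRCm38), the heavy chain of smooth muscle myosin, had 229 TPM in replicate 1 and 241 TPM in replicate 2, or 235 ± 8.37. The nonmuscle heavy chain Myh9 had 44.2 and 53.3 TPM in replicates 1 and 2, and the nonmuscle heavy chain Myh10 had 72.7 and 68.6 TPM. Myh11 was above each of them in both libraries, by 2.27 ± 0.14 over Myh9 and 1.73 ± 0.11 over Myh10 on the log2 scale. It made up 66.2% and 66.4% of the 3 genes' TPM in replicates 1 and 2, a share that barely varied between pools. The translated coding sequences of Myh11 were 76.3% identical to Myh9 and 75.3% to Myh10.

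Myl9 (ENSMUSG00000067818; chromosome 2, 156775420 to 156781658), the smooth muscle form of the regulatory light chain, had 1336 and 1521 TPM in replicates 1 and 2. Its close relatives Myl12a and Myl12b, which serve nonmuscle myosin, had 489 and 454 TPM and 246 and 258 TPM. The proteins are 94.2% and 93.6% identical to Myl9 over 172 residues. Myl9 carried 64.5% and 68.1% of this family's TPM, close to the share of Myh11 among the heavy chains. Myl6, the essential light chain used by smooth muscle and nonmuscle myosin alike, was higher still, at 1569 and 1709 TPM. Relative to Myh11, Myl9 was 5.84-fold and 6.32-fold higher in replicates 1 and 2, and Myl6 6.86-fold and 7.10-fold.

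The site at which the kinase acts is shown because it is what the 3 regulatory light chain genes have in common. The coding stretches are from the GENCODE M21 transcripts on GRCm38, and capitals mark the codons of the phosphorylated threonine and serine. They lie at chr2:156778578-156778625 on the plus strand for Myl9, chr17:70996800-70996847 on the minus strand for Myl12a and chr17:70977151-70977198 on the minus strand for Myl12b.
Myl9-201: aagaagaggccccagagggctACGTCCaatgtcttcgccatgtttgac
Myl12a-206: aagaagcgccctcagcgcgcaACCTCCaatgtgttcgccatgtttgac
Myl12b-201: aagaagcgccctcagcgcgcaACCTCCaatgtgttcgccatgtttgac
Over these 48 bases Myl9 differed from each of the others at 8 bases, and Myl12a and Myl12b differed from each other at 0. Reads that lie within this stretch cannot be assigned to Myl12a or Myl12b by sequence, and how far that affects their levels was not tested.

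Mylk (ENSMUSG00000022836; chromosome 16, 34745210 to 35002420), the smooth muscle light chain kinase, had 77.6 and 90.6 TPM in replicates 1 and 2. Its only coding transcript here, Mylk-201, encodes 1950 residues and held 98.9% and 99.2% of the gene. The other transcript, Mylk-202, is a retained-intron one. Reads of any shorter coding form of the kinase could be assigned only to these, so that share does not tell such forms apart. The short product telokin, known to arise from the end of this gene, has no transcript of its own in the tables. The kinase genes of striated muscle were far lower: Mylk3, the heart kinase, had 6.01 and 3.35 TPM, and the skeletal muscle kinase Mylk2 had 1.46 and 0.06 TPM. Mylk made up 89.8% and 96.3% of the kinase family's TPM.

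Other genes of myosin phosphorylation were all present, with 16 of 16 detected and 0 of 16 beyond 1.5-fold between pools. That 0 does not set the list apart, since only 4.13% of all genes passed this limit toward replicate 1 and 5.15% toward replicate 2. Myl6 was the highest of this list, and Calm2, a calmodulin gene, stood at 777 ± 22.2 TPM. The lowest was Arhgef12, an exchange factor that activates RhoA, at 5.25 ± 0.134 TPM. The phosphatase targeting subunit Ppp1r12a stood at 42.6 ± 3.10 TPM and the phosphatase inhibitor Ppp1r14a, which is abundant in smooth muscle, at 68.3 ± 0.870 TPM; neither was named by the rule for lists, and both were picked for their roles after their values were seen.

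Among the actin-binding regulators, Tagln (ENSMUSG00000032085; chromosome 9, 45929619 to 45936058), which encodes SM22 alpha, an actin-bundling protein used as a smooth muscle marker, had 362 and 453 TPM. Tagln2, its widely expressed relative, had 306 and 376 TPM, so Tagln was only 0.25 ± 0.02 higher on the log2 scale. Tagln3, a neuronal relative, had 17.5 and 17.1 TPM. For Cnn1 (ENSMUSG00000001349; chromosome 9, 22099216 to 22109630), which encodes the calponin that inhibits actomyosin in smooth muscle, the values were 256 and 300.1 TPM. The more widely expressed calponins were as high or higher, Cnn2 at 268 and 279.8 TPM and Cnn3 at 431 and 456 TPM. Cnn1 and Cnn2 were not separated by their spread, with a log2 difference of 0.02 ± 0.12 and opposite order in the pools. Cnn1 was thus 26.8% and 29.0% of the calponin TPM, well under the share that Myh11 and Myl9 held in their families.

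**Figure D2:**
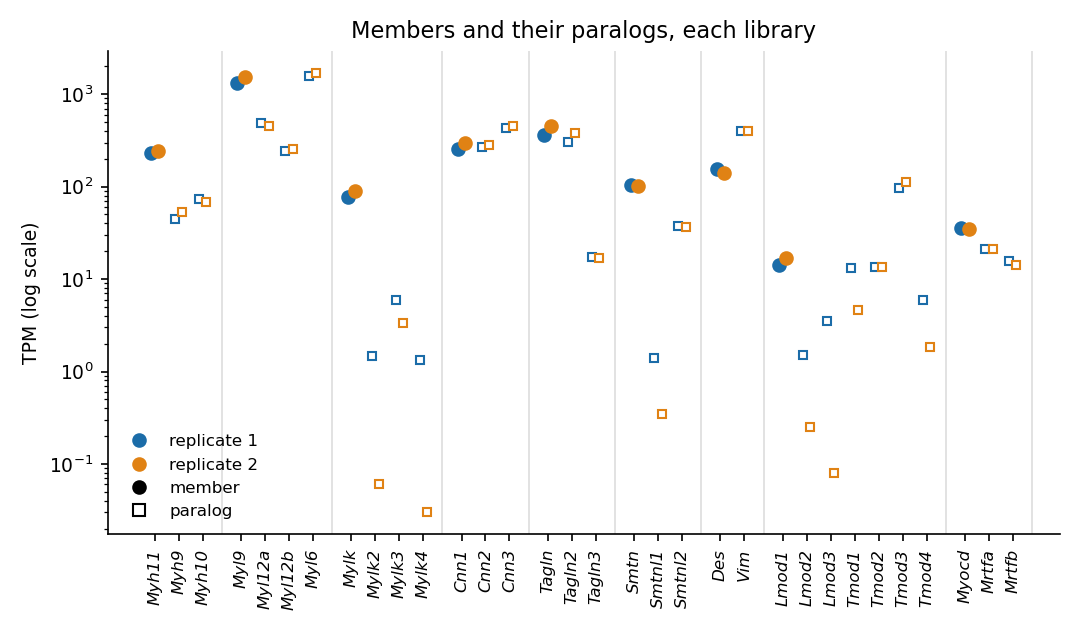
TPM (log axis) of the members (filled circles) and their paralogs (open squares) in replicate 1 (blue) and replicate 2 (orange), family by family. Myh11, Mylk, Smtn, Tagln and, by whole-gene TPM, Myocd stand above the relatives shown, and Myl9 above all but Myl6. Cnn1 lies level with Cnn2, and Mylk2, Mylk4, Lmod2 and Lmod3 are spread widely between the libraries.

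Cald1 (ENSMUSG00000029761; chromosome 6, 34598500 to 34775473) encodes caldesmon, which binds actin, myosin and calmodulin. It had 289 and 301 TPM in replicates 1 and 2. Smooth muscle is known for a long caldesmon with an extra central stretch, and other cells for a short one without it. That stretch is 624 bases (208 codons) at chr6:34746016-34746639, where Cald1-205 extends an exon that the short transcripts end earlier. Charged residues made up 56.2% of the codons in it and 45.7% of the rest of the 768-residue protein. Its start is given from GENCODE M21 on GRCm38 at chr6:34745986-34746165 on the plus strand, with the long-form bases in capitals after the last 30 bases that both forms share.
Cald1-205: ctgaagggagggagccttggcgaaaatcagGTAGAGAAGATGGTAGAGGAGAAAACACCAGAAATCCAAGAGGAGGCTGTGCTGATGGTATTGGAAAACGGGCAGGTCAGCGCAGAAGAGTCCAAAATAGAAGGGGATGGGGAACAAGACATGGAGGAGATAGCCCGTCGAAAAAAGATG

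The long form was a small part of Cald1 in this tissue. Cald1-205 had 6.01 TPM in replicate 1 and 2.75 TPM in replicate 2, which is 2.08% and 0.914% of the gene. Its expected counts were 863 and 221, a fold of 2.24 after scaling, with a counting interval of 1.93 to 2.61. That interval, like all those given here, covers counting error at 95% (exact Clopper-Pearson) and not the variation between pools. Nor does it cover the error of splitting shared reads between transcripts. The bounds that the authors deposited for Cald1-205 were 4.21 to 7.40 TPM in replicate 1 and 1.26 to 4.47 TPM in replicate 2, which overlap. The share depended on what was counted, under alternatives chosen after the values were seen. Counting every transcript that holds the long segment, fragments included, gave 6.27% and 5.44%, and setting Cald1-205 among complete coding transcripts alone gave 10.1% and 4.82%. Many transcripts in the full sum neither span nor skip the segment. Among only those that do, the transcripts holding it made up 9.34% and 8.09% of TPM in replicates 1 and 2.

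By TPM, most of the Cald1 signal was assigned to short annotated pieces. Cald1-211, an incomplete coding transcript of 956 bases, held 42.1% and 43.8% of the gene in replicates 1 and 2. Cald1-215, a retained-intron transcript of 743 bases, held 31.3% and 31.2%. Complete coding transcripts summed to 59.7 and 57.0 TPM, or 20.7% and 18.9% of the gene. By them alone Cald1 would stand at 58.4 ± 1.90 TPM, below Mylk in the order above. Expected counts, which are not corrected for length, gave another picture. Of these, complete coding transcripts held the larger part, 7398 of 12819 in replicate 1 and 3918 of 7169 in replicate 2. The upstream first exon was carried by 87.0% and 88.1% of the gene's TPM and the downstream first exon by 8.25% and 6.89%.

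Smtn (ENSMUSG00000020439; chromosome 11, 3517523 to 3540612) encodes smoothelin, an actin-associated protein of contractile smooth muscle. The gene had 103.5 and 102 TPM in replicates 1 and 2, with an SD of 0.887% of the mean, the smallest of the members in TPM; in scaled counts Cald1 and Myh11 had ratios nearer to 0. The relative Smtnl2 had 37.4 and 36.9 TPM. Smtn's long forms are known mainly from vascular and its short form mainly from visceral smooth muscle. In the tables, the transcripts of at least 2000 coding bases held 78.7% and 90.9% of the gene. Smtn-202 has a penultimate exon of 165 bases that Smtn-203 lacks, and this exon was included in 55.9% and 57.1% of the complete coding TPM.

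The transcripts of Smtn were less steady than the gene. The short form Smtn-201, of 436 codons, had 15.4 TPM in replicate 1 and 2.14 TPM in replicate 2, or 14.9% and 2.09% of Smtn. The expected counts were 781 and 61, a fold of 7.34 with a counting interval of 5.65 to 9.69. The bounds that the authors deposited for this transcript, at a level the sources used here do not give, were 13.5 to 17.0 TPM and 1.13 to 3.49 TPM, which do not overlap. Smtn-202 moved the other way, with 34.9 TPM in replicate 1 and 50.8 TPM in replicate 2, while Smtn-203 had 42.7 and 40.8 TPM. Skeletal muscle genes differed between the pools in the same direction as the short form. All 14 of a marker list were more than 1.5-fold higher in replicate 1, as 4.13% of all genes were. Their summed TPM was 2684 in replicate 1 and 225 in replicate 2, and none was at 0. With spike-in totals all 14 were still higher in replicate 1 and 13 passed 1.5-fold. Their part in the Smtn difference was not tested.

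The short form begins with a first exon of its own, 510 bases at chr11:3527428-3527937 on the minus strand, and 399 of its coding bases lie there. The start of that coding sequence is shown because these bases tell it from the long forms. They are from GENCODE M21 on GRCm38, at chr11:3527707-3527826 on the minus strand, with the start codon in capitals.
Smtn-201: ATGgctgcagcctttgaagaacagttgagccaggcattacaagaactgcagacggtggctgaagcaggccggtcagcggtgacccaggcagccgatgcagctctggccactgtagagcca

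**Figure D3:**
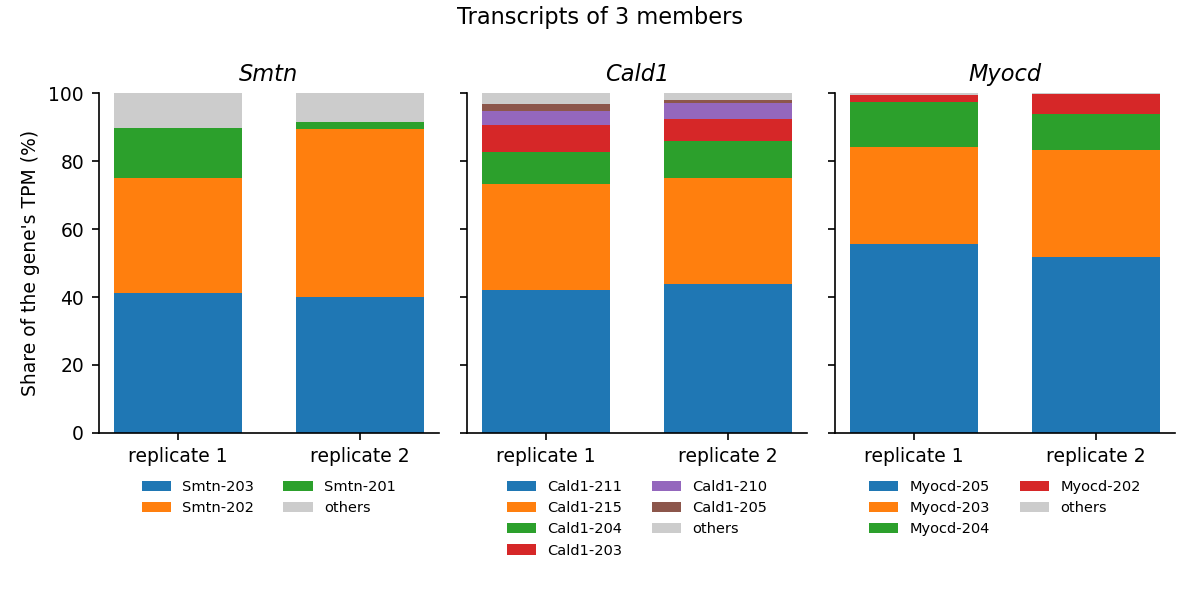
Share of each gene's TPM (%, stacked to 100) carried by the named transcripts of Smtn, Cald1 and Myocd in replicate 1 and replicate 2, with all others in grey. Smtn-201 takes 14.9% in replicate 1 and 2.09% in replicate 2, whereas Cald1-211 and Cald1-215 lead Cald1 in both libraries and Myocd-205 leads Myocd in both.

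Des (ENSMUSG00000026208; chromosome 1, 75360329 to 75368579) encodes desmin, the intermediate filament protein of all muscle types, and had 157 and 139.5 TPM in replicates 1 and 2. Vim, which encodes vimentin of mesenchymal cells, had 402 and 397 TPM, and the log2 difference of Des minus Vim was −1.43 ± 0.11. Skeletal and heart muscle also make desmin. Des was the member with the largest ratio toward replicate 1, at a log2 ratio of 0.19. Its retained-intron transcript Des-202 had 71 and 7 expected counts, but the authors' bounds for it, 1.63 to 4.96 TPM and 0.021 to 1.935 TPM, overlap. The skeletal list stood at a summed 2684 and 225 TPM in the same libraries, and its part in the level of Des was not tested.

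Genes of the dense plaques and bodies that anchor these filaments were also detected, 16 of 16. Of these, 2 were more than 1.5-fold higher in replicate 1, as 4.13% of all genes were, and 0 were lower by that much. The highest were Flna, the actin cross-linker filamin A, at 435 ± 46.8 TPM, Pdlim7 at 199 ± 6.54 TPM and Pdlim3 at 187 ± 14.7 TPM. The lowest by mean TPM was the integrin gene Itga7, at 6.53 and 4.09 TPM. Ldb3, a Z-disc protein gene of striated muscle, had 20.96 TPM in replicate 1 and 3.56 TPM in replicate 2, a log2 ratio of 2.41. Itga7 and Ldb3 were the 2 that differed, and skeletal muscle is known to express both.

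Lmod1 (ENSMUSG00000048096; chromosome 1, 135324807 to 135368065) encodes leiomodin 1, which nucleates actin filaments in smooth muscle, and had 14.2 and 17.0 TPM. The leiomodins of striated muscle were lower: Lmod2 had 1.52 and 0.25 TPM and Lmod3 had 3.48 and 0.08 TPM. The tropomodulin gene Tmod3, whose broadly expressed protein caps actin filament ends, had 96.9 and 113 TPM and the log2 difference of Lmod1 minus Tmod3 was −2.75 ± 0.02. Lmod1 therefore made up 74.0% of leiomodin TPM in replicate 1 and 98.1% in replicate 2, while Lmod1 itself was lower in replicate 1 than in replicate 2.

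The largest differences between the pools in these families lay in paralogs of striated muscle. Lmod3 had 229 and 3 expected counts, a fold of 43.8 with a counting interval of 14.8 to 214. Mylk4 had 197 and 3 counts, a fold of 37.6 (12.7 to 184), and Mylk2 had 128 and 3 counts, a fold of 24.5 (8.18 to 120.2). Lmod3, Mylk4 and Mylk2 did not pass the expression filter, so their folds come from counts near 0 in replicate 2. Smtnl1, Lmod2, Tmod4, Tmod1 and Mylk3 were also higher in replicate 1, at log2 ratios of 1.90, 2.44, 1.81, 1.36 and 0.95. Each was more than 1.5-fold higher there, as 4.13% of all genes were. The skeletal list's summed 2684 and 225 TPM, its 14 of 14 genes beyond 1.5-fold and its median log2 ratio of 4.38 went the same way, and its part in these paralogs was not tested.

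Myocd (ENSMUSG00000020542; chromosome 11, 65176561 to 65269989) encodes myocardin, the coactivator that SRF uses in smooth and heart muscle. By gene TPM it had 35.9 and 34.4 in replicates 1 and 2. Its relatives Mrtfa and Mrtfb, which encode coactivators regulated by actin, were lower. Mrtfa had 21.02 and 21.26 TPM and Mrtfb 15.6 and 14.3 TPM. That order is for whole genes and changes with the Myocd transcripts counted, as given below. Srf itself was the lowest gene of the list of SRF and its partners, at 4.18 and 3.46 TPM. All 16 genes of that list were detected, led by the muscle LIM protein genes Csrp1 at 196 ± 14.2 TPM, Fhl1 at 137 ± 23.8 TPM and Csrp2 at 115 ± 0.587 TPM. Of the 16, 1 exceeded 1.5-fold between pools, Nkx2-3, a homeobox gene of gut mesenchyme, at 9.03 and 6.08 TPM. It was named after its values were seen. Among all genes 4.13% passed this limit toward replicate 1 and 5.15% toward replicate 2, so that count does not set the list apart.

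Most of the Myocd TPM was assigned to a short noncoding transcript. Myocd-205, of 377 bases, had 20.0 and 17.9 TPM in replicates 1 and 2, or 55.7% and 51.9% of the gene, on 171 and 85 expected counts. Of the transcripts that hold the first exon it made up 64.5% and 58.2% by TPM, a share computed after the values were seen. By expected counts, which are not corrected for length, that share averaged 8.19 ± 1.40%. Complete coding transcripts had 11 and 12.8 TPM, and by them alone Myocd would stand at 11.9 ± 1.3 TPM, under Lmod1. Myocd-203, the main one, had 1575 and 929 expected counts, and the 144-base exon that Myocd-202 lacks was in 93.0% and 84.0% of complete coding TPM.

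Myocd-205 contains an exon of 44 bases that Myocd-203 lacks, at chr11:65228818-65228861 on the minus strand. A smooth muscle form of myocardin is known that starts translation internally and lacks the MEF2-binding stretch found in the heart form. The shortest complete coding transcript, Myocd-201 of 855 codons, had 0 TPM in both libraries. Whether Myocd-201 or Myocd-205 belongs to that form was not tested. Read from the start codon of Myocd-203, the Myocd-205 sequence met a stop after 41 codons, inside the 44-base exon. The exon is shown in capitals with 20 bases of each neighbouring exon, from GENCODE M21 on GRCm38.
Myocd-205: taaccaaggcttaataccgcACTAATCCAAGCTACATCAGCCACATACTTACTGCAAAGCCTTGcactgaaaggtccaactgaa
The deposited tables hold no complete transcript with this exon, so the reads of such a transcript could be assigned only to Myocd-205 or to the exons it shares with the others.

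The CArG box, searched as CC, 6 letters that are A or T, and GG on both strands, was found near the start of Myl9. In the RefSeq table of promoters on GRCm38.p6, each from 250 bases before a gene's start to 50 after it, 1 of the 8 windows for 7 member genes held it, beside 1.63% of 32851 windows. Members outside those 7 had no window and were not searched. The bases around it are shown with the box in capitals, at chr2:156775248-156775367 on the plus strand; the box begins 161 bases before the RefSeq start.
Myl9 promoter: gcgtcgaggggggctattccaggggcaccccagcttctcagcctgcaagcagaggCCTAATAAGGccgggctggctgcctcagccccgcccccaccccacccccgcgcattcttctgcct
The letters TATAAA were in 1 member window, that of Cald1, and in 13.6% of all windows. Such a match describes letters and shows neither binding nor use.

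Upstream of the motor, genes of calcium entry and release were expressed at low levels, 12 of 14 detected, with 1 beyond 1.5-fold. By mean TPM Atp2a2, the calcium pump of the store, was highest with 26.1 ± 0.240 TPM, Casq2, a calcium-binding protein of striated muscle stores, averaged 20.2 TPM, and Kcnma1, a calcium-gated potassium channel gene, had 8.12 ± 0.311 TPM. The values of Casq2 were 37.2 TPM in replicate 1, above Atp2a2 there, and 3.27 TPM in replicate 2, a log2 ratio of 3.83 in the direction of the skeletal list. The lowest was the heart calcium release channel gene Ryr2, at 0.23 and 0.31 TPM. Of 10 receptor genes 7 were detected and 0 passed 1.5-fold, beside 4.13% of all genes toward replicate 1 and 5.15% toward replicate 2. The endothelin receptor gene Ednra had 22.5 ± 2.13 TPM, the muscarinic receptor gene Chrm2 21.7 ± 2.28 TPM and the prostaglandin receptor gene Ptger3 14.0 ± 0.0778 TPM, whereas the oxytocin receptor gene Oxtr had 0.26 and 0.25 TPM.

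Between the pools the members' log2 ratios ran from −0.29 to 0.19. The log2 ratio of replicate 1 over replicate 2, from counts scaled by TMM, was −0.29 for Tagln, −0.22 for Lmod1, −0.19 for Mylk and for Cnn1, −0.15 for Myl9 and −0.13 for Myocd. It was −0.04 for Smtn and for Myh11, 0.04 for Cald1 and 0.19 for Des. Thus 8 of 10 were lower in replicate 1 beside 49.6% of the 17763 genes compared, and with unscaled TPM 7 of 10 and with spike-in totals 10 of 10 were lower. The members' median was −0.14, and the lower and upper quartiles of all genes were −0.14 and 0.14. None of the 10 was more than 1.5-fold higher in replicate 1, where 4.13% of all genes were, or more than 1.5-fold lower, where 5.15% were. None was over 2-fold apart, as 3.58% of all genes were. In a list of 10 genes, a count of 0 is near these shares. With spike-in totals 8 of 10 were more than 1.5-fold lower, but that scaling moved the median of all genes by −0.57 and turned 734 genes higher and 915 lower into 174 higher and 8425 lower. Relative to that median the members ran from −0.29 to 0.18.

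**Figure D4:**
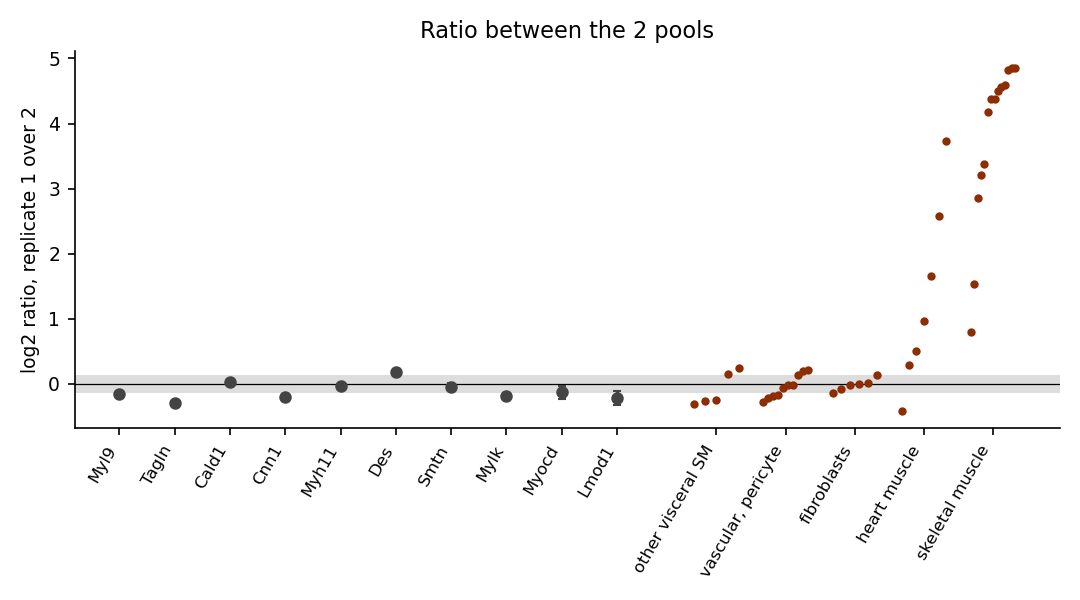
Log2 ratio of replicate 1 over replicate 2 for the members (black, with bars for the 95% counting interval) and for marker lists without the members (brown, 1 point a gene), with the range between the quartiles of all genes in grey. The members lie between −0.29 and 0.19, whereas the 14 skeletal muscle genes lie between 0.80 and 4.85.

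The smooth muscle actins were also lower in replicate 1, as 49.6% of all genes were. Acta2 had 2117 and 2612 TPM in replicates 1 and 2 and Actg2, the enteric form, had 1450 and 1858 TPM, at log2 ratios of −0.27 and −0.31. None of the 10 markers of vascular smooth muscle and pericytes passed 1.5-fold, and their summed TPM was 340.1 and 377 in replicates 1 and 2. Vascular smooth muscle is known to express most of the contractile genes too. The highest of the list was Ndufa4l2 at 142 and 176 TPM, then Kcnj8 at 52.2 and 48.8 and Mcam at 43.2 and 46.4 TPM, and the lowest was Higd1b at 1.01 and 1.20 TPM. The part of vascular cells in the members' levels was not tested. None of 6 fibroblast genes and none of 3 genes of interstitial cells of Cajal passed 1.5-fold either. Among the 17763 genes compared, 4.13% passed this limit toward replicate 1 and 5.15% toward replicate 2. In lists this short, counts of 0 are near those shares and do not set the lists apart from other genes. The heart muscle list had 4 of the 7 genes that passed the filter more than 1.5-fold higher in replicate 1, with summed TPM of 148 and 86.6.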

How the data were processed

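Per the labels, each library was made from 10 ng of RNA extracted with mirVana. Per the deposited text files, the build was mm10 with the M4 gene set. Neither aligner nor quantifier is given in the sources used here. The tables the authors deposited hold expected counts (estimated, shared reads split), TPM, FPKM, posterior mean TPM and percent of the gene per transcript, for 69691 features a library, spike-ins included. The percent column was recomputed here from TPM.

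Names, positions and exons came from GENCODE M21, which gave 42442 of the genes a symbol; 42 of the 45 member transcripts had the deposited length. Expected counts were rounded, filtered with filterByExpr (17763 genes kept) and TMM-scaled, with edgeR 4.0.16 under R 4.3.3 and a prior count of 2; DESeq2 1.42.0 size factors were an alternative. TMM factors were 1.01 and 0.992, spike-ins 3.08% and 2.05% of counts. The calculation was checked on simulated counts with known folds, which says nothing about the variation between these pools. The pools are separate libraries: 592 of 25635 genes had identical counts. Python 3.11.15, pandas 2.3.3, scipy 1.17.1, Biopython 1.88 and matplotlib 3.10.9 did the rest. Proteins were aligned globally with BLOSUM62.

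Named were all members, their paralogs, Acta2 and Actg2, and of each list the 3 highest, the lowest and any gene beyond 2-fold; in the skeletal and heart lists only counts and sums are given, and 1 gene that the rule names is not reported here. The members and lists were chosen with earlier results of these data known. Counting intervals cover counting error only, since reads carry no molecular identifiers here.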

Additional observations from a re-analysis of the deposited data

How the results depend on the processing

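All 10 members were detected with FPKM, posterior mean TPM, limits of 10 or 0.1 TPM, and either library alone. The median member lay above the median detected gene by 3.55 to 3.65 with either library left out, 3.43 with FPKM, 4.03 with posterior mean TPM, 3.52 with pseudocount 1 and 5.76 over genes with any count. Myh11 stayed above Myh9 (2.17 to 2.37 with a library left out) and Myh10 (1.65 to 1.81). The Cald1 long-form share was 0.914% to 2.08% with a library left out, 4.91% by expected counts, 5.86% with all transcripts holding the segment and 7.44% among complete coding transcripts; the last 3, and all alternatives for Smtn and Myocd transcripts, were chosen after seeing the data. The Smtn short-form share ran from 2.09% to 14.9% and the Myocd exon share from 58.2% to 64.5% with a library left out, and the Myocd share was 8.19% by expected counts, which are not corrected for length. With spike-in totals 8 members passed 1.5-fold and their median log2 ratio was −0.72; DESeq2 size factors, no filter, prior count 0.5 and unscaled TPM left 0 members past it. No paired analysis was possible because there is 1 group.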
